A study of Mus musculus with 6 samples.

Results

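The efferent cholinergic synapse genes examined here are Chrna9, Chrna10, Chrna1, Rapsn and Kcnn2, chosen by name as the postsynaptic genes of the contact that brainstem axons make on hair cells. They are 5 of the 24411 genes in the count tables, and all 5 passed the filter on low counts that kept 15303 genes. The study asked which genes in the cochlea respond when the inner hair cells (IHCs) are kept from firing their own Ca2+ action potentials. Kir2.1-OE mice, with the genotype Otof rtTA+/− and Kir2.1 +/−, carry a transgene for the inward rectifier K+ channel Kir2.1 that doxycycline (DOX) turns on through an activator under the Otof promoter, which is used mainly by IHCs. Controls were littermates that carried the Otof rtTA+/− allele with Kir2.1 +/+, that is without the transgene, and both groups received DOX at 0.5 mg/ml from conception through the drinking water of the mother, on a C57BL/6N background. Each group had 3 libraries from P9 mice, and each library was made from 1 pool of 8 cochleae from 4 mice. Pools are numbered as the replicates in the labels. The p-values below therefore measure the spread between pools, not between mice. The pools hold dissected sensory epithelium with both kinds of hair cell, supporting cells, nerve fibres and glia, so that fewer cells of a type and less RNA per cell cannot be told apart.

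Before the onset of hearing, cholinergic axons from the brainstem form transient synapses directly on IHCs, and after it they are found mainly on outer hair cells. Acetylcholine opens a nicotinic receptor built from the α9 and α10 subunits (Chrna9 and Chrna10). The Ca2+ that enters through it opens the small-conductance Ca2+-activated K+ channel SK2 (Kcnn2), and the K+ that leaves the cell hyperpolarises it. Rapsyn (Rapsn) is the scaffold that gathers nicotinic receptors under the nerve ending, best known from the neuromuscular junction. The α1 subunit (Chrna1) is the acetylcholine-binding subunit of the receptor at that same junction.

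Chrna1 was the gene of this group with the largest difference, at 51.3% of its control level, whereas Chrna9 and Chrna10 lay at 77.2% and 73.3% and Rapsn and Kcnn2 at 123% and 130%. Both ends of that range of nicotinic subunits are shown here by the bases that precede their transcription start, because Chrna1 is a well-known target of transcription factors that bind E-boxes. RefSeq windows were found for 3 of the 5 genes. The lines give the 250 bases before the RefSeq start on the strand of the gene, in the GRCm38.p6 build, with every match to the E-box letters CANNTG, which read the same way on both strands, in capitals. The first lies at chr5:65966874-65967123 on the plus strand and the second at chr2:73580339-73580588 on the minus strand, and 0 annotated exons overlap either window. The RefSeq start of Chrna9 lies inside the span that the GENCODE annotation gives for the gene, which begins further upstream at 65934921.
Chrna9: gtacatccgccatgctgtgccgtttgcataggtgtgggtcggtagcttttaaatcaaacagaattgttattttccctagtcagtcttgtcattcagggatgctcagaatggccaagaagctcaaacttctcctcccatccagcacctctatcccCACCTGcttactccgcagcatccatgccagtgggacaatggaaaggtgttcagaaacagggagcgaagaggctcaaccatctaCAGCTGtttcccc
Chrna1: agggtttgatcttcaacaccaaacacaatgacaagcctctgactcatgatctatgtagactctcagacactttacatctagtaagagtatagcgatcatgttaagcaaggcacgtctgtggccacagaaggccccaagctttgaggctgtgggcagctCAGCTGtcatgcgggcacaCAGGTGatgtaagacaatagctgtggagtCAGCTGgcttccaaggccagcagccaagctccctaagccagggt
The Chrna1 window held 3 matches, CAGCTG starting 92 bases, CAGGTG 73 bases and CAGCTG 44 bases before the start. The Chrna9 window held 2, CACCTG at 96 bases and CAGCTG at 13 bases, and the Chrna10 window, which is not printed because an annotated exon overlaps it, held 2 as well, CAGGTG at 129 bases and CAGTTG at 116 bases. Of 32851 promoter windows of the same length, 66.2% held CANNTG at least once and 13% held CAGCTG, a form of it. The mean was 1.16 matches to CANNTG per window. Whether the matches bear on the levels was not tested. The cyclic AMP response element TGACGTCA, which also reads the same on both strands, was in 1.55% of all windows and in none of these 3. No window was found for Rapsn and Kcnn2.

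The 6 libraries differed little in depth, with between 35430940 and 38193109 assigned reads in Kir2.1-OE pools and between 37063812 and 41205047 in control pools. Kcnj2, which encodes Kir2.1, followed the labels, with 3213 ± 872 (SD, n = 3) normalized counts in Kir2.1-OE pools and 229.9 ± 5.16 (SD, n = 3) in control pools. A normalized count is a gene's number of reads after scaling every library to the same effective size. A gene was called higher or lower at an adjusted p-value under 0.05 together with a fold change above 1.5. By that rule 15.5% of the tested genes were called higher and 5.08% lower, and the median log2 fold change over all tested genes was 0.0096. Without the fold change threshold 50.8% of the tested genes had an adjusted p-value under 0.05, with 27.3% higher and 23.5% lower. The values of the groups did not overlap for 61.6% of the tested genes, 31.7% with higher and 29.9% with lower values in Kir2.1-OE pools.

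**Figure D1:**
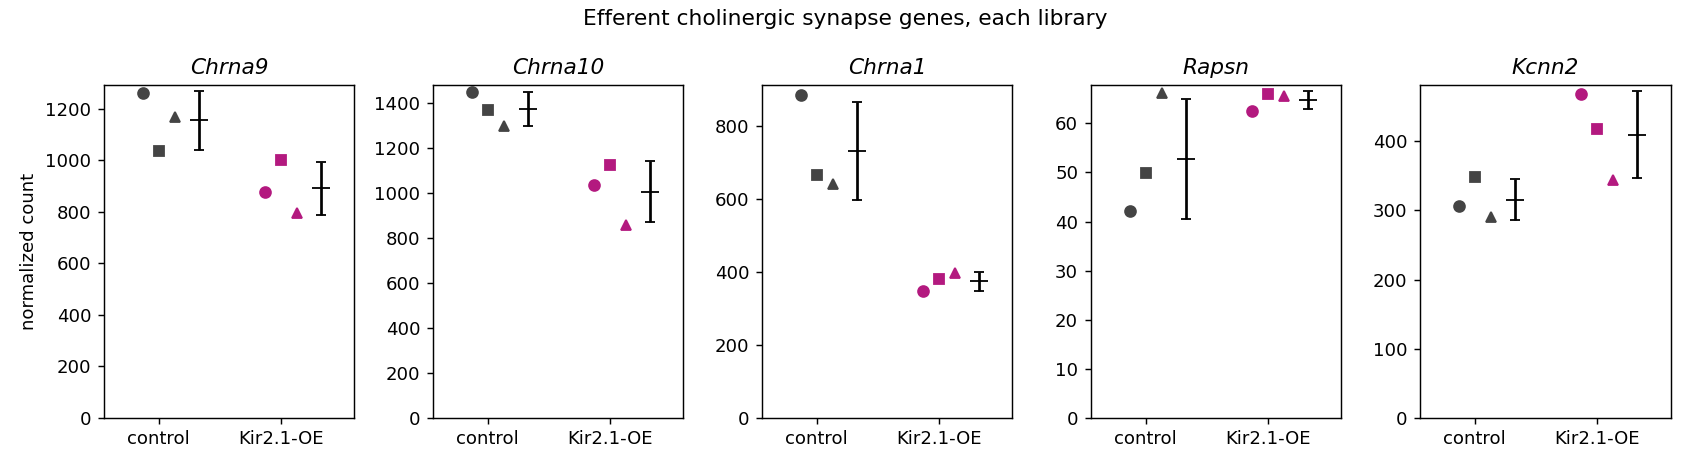
Normalized counts of the 5 genes in each library, on axes that start at 0. Circles, squares and triangles are pools 1, 2 and 3 of controls (grey) and Kir2.1-OE pools (magenta), and bars are the mean ± SD of 3 pools. The groups are apart for Chrna9, Chrna10 and Chrna1 and overlap for Rapsn and Kcnn2.

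Chrna9 (ENSMUSG00000029205.12) lies on the plus strand of chromosome 5 of mm10 from 65934921 to 65977326. Its normalized counts were 876, 1000.3 and 794 in Kir2.1-OE pools 1 to 3 and 1260.1, 1034 and 1169 in control pools 1 to 3. Every Kir2.1-OE library lay below every control library, although Kir2.1-OE pool 2 and control pool 2 were close to each other. The means were 890.1 ± 104 (SD, n = 3) and 1154 ± 114 (SD, n = 3), a log2 fold change of −0.37 with a standard error of 0.108 and a 95% interval from −0.62 to −0.13. The difference had an adjusted p = 0.0170 by edgeR's quasi-likelihood F-test, Benjamini-Hochberg adjusted, but stayed under the fold change threshold, so that Chrna9 was not called. The adjusted p was 0.0568 when Kir2.1-OE pool 1 was left out and 0.0605 when control pool 1 was left out.

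Chrna10 (ENSMUSG00000066279.3), the structural partner of α9 in the receptor, lies on the minus strand of chromosome 7 from 102111266 to 102116828. It had 1037, 1123 and 859 normalized counts in Kir2.1-OE pools 1 to 3 and 1452, 1368 and 1299.8 in control pools 1 to 3. As for Chrna9, the groups did not overlap and Kir2.1-OE pool 3 was the lowest of the 6 libraries. The means of 1006 ± 135 (SD, n = 3) and 1373 ± 76.1 (SD, n = 3) gave a log2 fold change of −0.45 with a standard error of 0.104 (adjusted p = 0.00606, edgeR's quasi-likelihood F-test, Benjamini-Hochberg adjusted). Its 95% interval ran from −0.68 to −0.21, and Chrna10 was not called because the fold change was under 1.5. Groups that did not overlap, with lower values in Kir2.1-OE pools, were found for the 29.9% of all tested genes given above. Art1, a gene on the opposite strand that overlaps Chrna10, had between 0.979% and 2.42% of the Chrna10 reads. Art1 was called lower, with 12.3 ± 1.79 normalized counts in Kir2.1-OE pools and 26.0 ± 8.49 in control pools (SD, n = 3).

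The balance of the 2 subunits was compared within each library, since the receptor described above is built from both. Chrna10 exceeded Chrna9 in reads in every library, by a log2 ratio of 0.24, 0.17 and 0.11 in Kir2.1-OE pools 1 to 3 and of 0.20, 0.40 and 0.15 in control pools 1 to 3. The ratio was 0.17 ± 0.0658 (SD, n = 3) in Kir2.1-OE pools and 0.25 ± 0.133 (SD, n = 3) in control pools on the log2 scale, a difference of −0.08 with overlapping groups (exact permutation test, two-sided, p = 0.5). The difference was −0.0044 with control pool 2 removed, −0.0486 with Kir2.1-OE pool 3 removed and −0.13 with control pool 3 removed. With 3 pools against 3 this test cannot go below 0.10, and after adjustment over the 6 comparisons of this kind p was 0.75. With the correction for length and GC content described further on, the difference was −0.28. A change in the ratio was thus not detectable with these pools.

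Chrna1 (ENSMUSG00000027107.3) lies on the minus strand of chromosome 2 from 73563215 to 73580338. Its normalized counts were 345.9, 380.7 and 397 in Kir2.1-OE pools 1 to 3 and 885, 664 and 641 in control pools 1 to 3. The Kir2.1-OE libraries lay close together and well below the controls, among which pool 1 stood highest. With means of 374 ± 26.0 (SD, n = 3) and 730.1 ± 135 (SD, n = 3), Chrna1 fell by 0.96 on the log2 scale, with a standard error of 0.137 and a 95% interval from −1.27 to −0.66 (adjusted p = 5.44e-04, edgeR's quasi-likelihood F-test, Benjamini-Hochberg adjusted). It was the only one of the 5 genes that was called, and 20.5% of all tested genes were called in either direction. Without control pool 1 the log2 fold change was −0.80 (adjusted p = 9.72e-04, the same test). When the fold change itself was tested against a log2 value of 0.6, the adjusted p was 0.0505 with edgeR's glmTreat and 0.267 with DESeq2, so the size of the fall was not shown to exceed that limit, which 5.81% of all tested genes did with glmTreat.

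Because Chrna1 is the muscle subunit, the defining genes of skeletal muscle were measured in the same libraries. Of 17 such genes only 4 had enough reads to be tested, and 0 of them were called by edgeR, 0 by DESeq2, which called 19.5% of all genes it tested, and 0 had an unadjusted p under 0.05, which 57.4% of all tested genes had. Their summed level was between 16.7 and 26.8 CPM, read counts scaled to a common library total, in Kir2.1-OE pools and between 15.6 and 22 in control pools. Most of that came from Casq1, which encodes a Ca2+-binding protein of the sarcoplasmic reticulum, so the sum says little about the others. The tested genes were unequal, with Casq1 at 126% of its control level, Tnnt3 at 99.5%, Actn3 at 92.5% and Mylpf at 56.9%. Mylpf had few reads, with 21.2 ± 2.29 normalized counts in Kir2.1-OE pools and 37.5 ± 15.8 in control pools (SD, n = 3). Its unadjusted p of 0.0520 (edgeR's quasi-likelihood F-test) was just above 0.05. Myog, the myogenic regulator, had 0 to 3 reads in a library, and Ckm, muscle creatine kinase, had 0 to 9. Acta1, the actin of skeletal muscle, had 1 to 18 reads in 5 libraries and 108 in control pool 1, the library with the highest Chrna1 count. The other subunits of the muscle receptor were unequal in level, with Chrnb1 at 299 ± 35 (SD, n = 3) normalized counts in Kir2.1-OE pools and 367 ± 16.0 (SD, n = 3) in control pools. Chrnd, Chrne and Chrng had at most 16 reads in any library, with 0 to 2 reads for Chrnd, 2 to 6 for Chrne and 2 to 16 for Chrng.

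Rapsn (ENSMUSG00000002104.11), on the plus strand of chromosome 2 from 91035620 to 91045729, had the fewest reads of the 5 genes. It had 62.6, 66.0 and 65.6 normalized counts in Kir2.1-OE pools 1 to 3 and 42.1, 50.0 and 66.2 in control pools 1 to 3. The Kir2.1-OE libraries lay within a narrow range that reached the highest control. The means were 64.7 ± 1.83 (SD, n = 3) and 52.8 ± 12.3 (SD, n = 3), and the log2 fold change was 0.30 with a 95% interval from −0.25 to 0.84 (adjusted p = 0.334, edgeR's quasi-likelihood F-test, Benjamini-Hochberg adjusted). At this depth the interval leaves room for a level somewhat below that of controls as well as for one at 179% of it.

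Kcnn2 (ENSMUSG00000054477.16), which encodes the SK2 channel, lies on the plus strand of chromosome 18 from 45268860 to 45686024. Its normalized counts were 468, 418 and 344 in Kir2.1-OE pools 1 to 3 and 307, 349 and 291 in control pools 1 to 3. Kir2.1-OE pools 1 and 2 were above all controls, and pool 3 was just below the highest control. The means of 410 ± 62.5 (SD, n = 3) and 316 ± 29.9 (SD, n = 3) gave a log2 fold change of 0.38 with a standard error of 0.141 and a 95% interval from 0.0602 to 0.69. Its adjusted p = 0.0485 from edgeR's quasi-likelihood F-test, Benjamini-Hochberg adjusted was just under the threshold, and Kcnn2 was not called because the fold change was too small. The adjusted p was under 0.05 in 6 of 17 other analyses of the same data that tested for any difference, and its range over all of those that leave out 1 library was 0.0143 to 0.204. Reads of A330093E20Rik, an antisense gene at this locus, came to between 0.781% and 4.55% of those of Kcnn2.

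**Figure D2:**
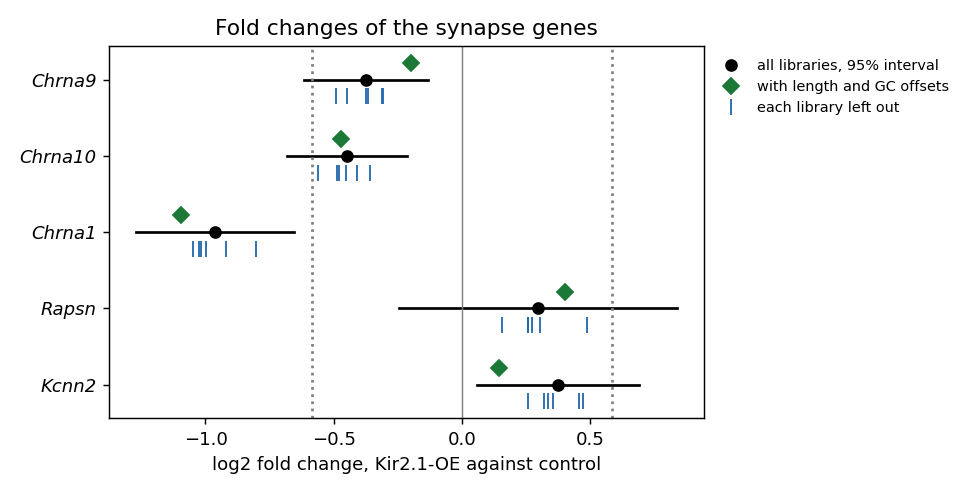
Log2 fold change of each gene, Kir2.1-OE against control. Black points and lines are the estimate and its 95% interval, green diamonds the estimate with length and GC offsets, and blue ticks the estimates with 1 library left out. Dotted lines mark a fold change of 1.5. The Chrna1 estimate of −0.96 and all its ticks lie beyond the dotted line, while the other 4 estimates lie between the lines.

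Levels can be compared between genes only per length, so CPM were divided by the length in kb of the longest annotated transcript. On this scale the order in control pools was Chrna9 at 16.7 ± 1.64 CPM per kb (SD, n = 3), Chrna10 at 14.6 ± 0.807, Chrna1 at 4.44 ± 0.817, Kcnn2 at 2.28 ± 0.216 and Rapsn at 0.875 ± 0.203. Only the neighbours Chrna9 and Chrna10 overlapped, with ranges of 14.9 to 18.2 and 13.8 to 15.4 CPM per kb. In Kir2.1-OE mice the levels were 12.9 ± 1.5 CPM per kb (SD, n = 3) for Chrna9, 10.7 ± 1.43 for Chrna10, 2.97 ± 0.452 for Kcnn2, 2.27 ± 0.158 for Chrna1 and 1.07 ± 0.0304 for Rapsn. Chrna9 and Chrna10 overlapped here too. Kcnn2 and Chrna1 stood in the opposite order, with 2.49 to 3.39 CPM per kb for Kcnn2 and 2.1 to 2.41 for Chrna1 in Kir2.1-OE pools. In controls they had 2.11 to 2.52 and 3.90 to 5.38 CPM per kb. The exchange of order depends on which transcript is taken for the length, and the exchange was not tested.

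The α9 and α10 subunits were the highest of all 16 nicotinic receptor subunits per length in both groups. Below them, Chrna3 and Chrnb4, subunits of ganglionic neuronal receptors, were at 4.98 ± 0.251 and 4.61 ± 0.891 CPM per kb (SD, n = 3) in control pools, close to Chrna1 and to Chrnb1 at 4.54 ± 0.197. Chrna4 and Chrnb2, which form the main receptor of the brain, were at 2.27 ± 0.925 and 0.989 ± 0.207 CPM per kb in control pools. Chrna5 and Chrna7 were below 0.5 CPM per kb in every library. Chrna2, Chrna6 and Chrnb3 had at most 9 reads in any library.

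**Figure D3:**
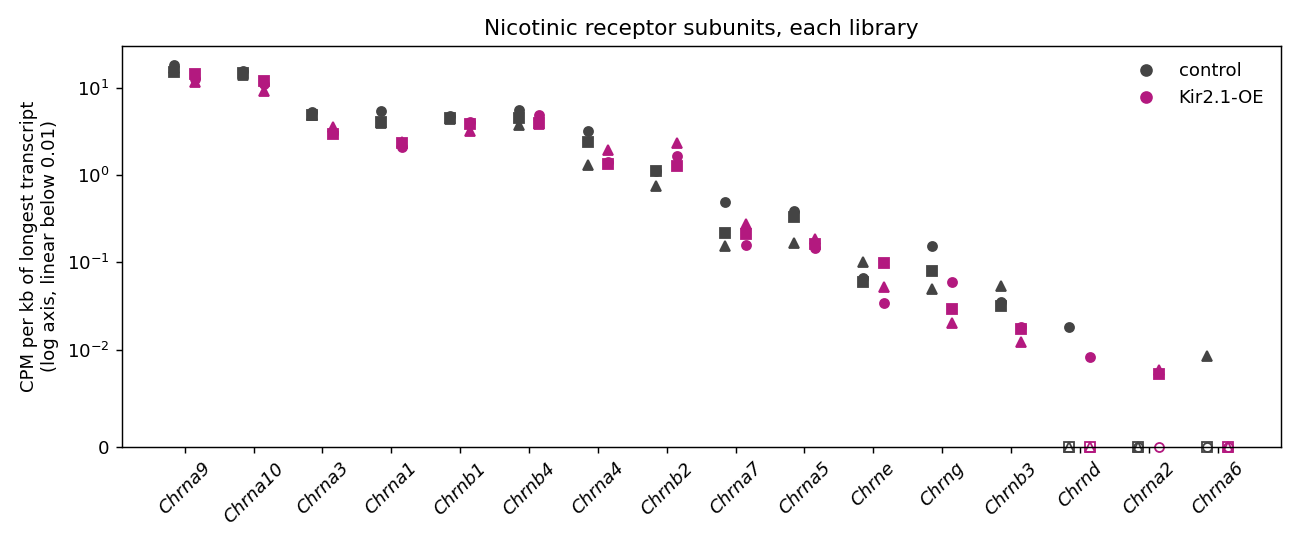
Levels of the 16 nicotinic receptor subunits in each library, in CPM per kb of the longest transcript, on a log axis that is linear below 0.01. Grey points are controls, magenta points Kir2.1-OE mice, circles, squares and triangles pools 1, 2 and 3, and open symbols on the base line 0 reads. Chrna9 and Chrna10 stand above the other 14 subunits in both groups.

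Log2 fold changes across all genes were higher for longer transcripts, with a Spearman correlation of 0.56 between log2 fold change and the length of the longest transcript, given as a description over genes that share their libraries. The model was therefore also fitted with an offset for each gene and library that follows the trend with length and GC content, which brought the correlation to 0.0501. By this fit 9.85% of the tested genes were called, 5.91% higher and 3.95% lower. Chrna1, with a transcript of 4386 nt, remained called at a log2 fold change of −1.1 (adjusted p = 9.84e-04, edgeR's quasi-likelihood F-test, Benjamini-Hochberg adjusted). Chrna10, at 2513 nt, kept nearly the same value, −0.47 (adjusted p = 0.00809, same test). For Chrna9, at 1843 nt, the estimate moved to −0.20 (adjusted p = 0.180), and for Kcnn2, at 3682 nt, it moved to 0.15 (adjusted p = 0.418). Rapsn, at 1606 nt, was at 0.40 (adjusted p = 0.217). The differences of Chrna1 and of Chrna10 were thus as large with these offsets as without them, and those of Chrna9, which was lower, and of Kcnn2, which was higher, were smaller.

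The levels were also set against the hair cells' own genes. The mean log2 CPM of 10 markers shared by inner and outer hair cells was 4.94 ± 0.103 (SD, n = 3) in Kir2.1-OE pools and 4.50 ± 0.108 (SD, n = 3) in control pools, and 3 of the 10 were called higher. Most of this difference was absent with the length and GC offsets, by which the median log2 fold change of the 10 markers went from 0.37 to −0.07 and 1 was called higher. Relative to that mean, Chrna9 was at −0.39, −0.30 and −0.43 on the log2 scale in Kir2.1-OE pools 1 to 3 and at 0.46, 0.28 and 0.57 in control pools 1 to 3. Chrna10 lay between −0.32 and −0.14 in Kir2.1-OE pools and between 0.67 and 0.73 in control pools, and Chrna1 between −1.72 and −1.43 and between −0.36 and −0.04. These 3 receptor genes were lower relative to the hair cell markers in every Kir2.1-OE library than in any control, by 0.81, 0.89 and 1.38 on the log2 scale (exact permutation test, two-sided, p = 0.1 for each, the smallest that 3 pools against 3 allow, and 0.2 after adjustment over 6 comparisons). The marker mean itself was higher by 0.44 in Kir2.1-OE pools, without overlap, so a gene with no change of its own would also lie lower on this scale. The share of all tested genes whose groups are apart on this scale was not measured.

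Kcnn2 and Rapsn overlapped between the groups on that scale. The difference was −0.07 for Kcnn2 (exact permutation test, two-sided, p = 0.7, adjusted p = 0.8) and −0.13 for Rapsn (exact permutation test, two-sided, p = 0.8, adjusted p = 0.8). The hair cell markers have long transcripts, with a median of 5827 nt against 3381 nt for all tested genes, and with the length and GC offsets the relative differences were −0.18 for Chrna9, −0.46 for Chrna10, −1.06 for Chrna1, 0.16 for Kcnn2 and 0.44 for Rapsn. Chrna1 was the gene whose relative level depended least, in proportion, on the correction.

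**Figure D4:**
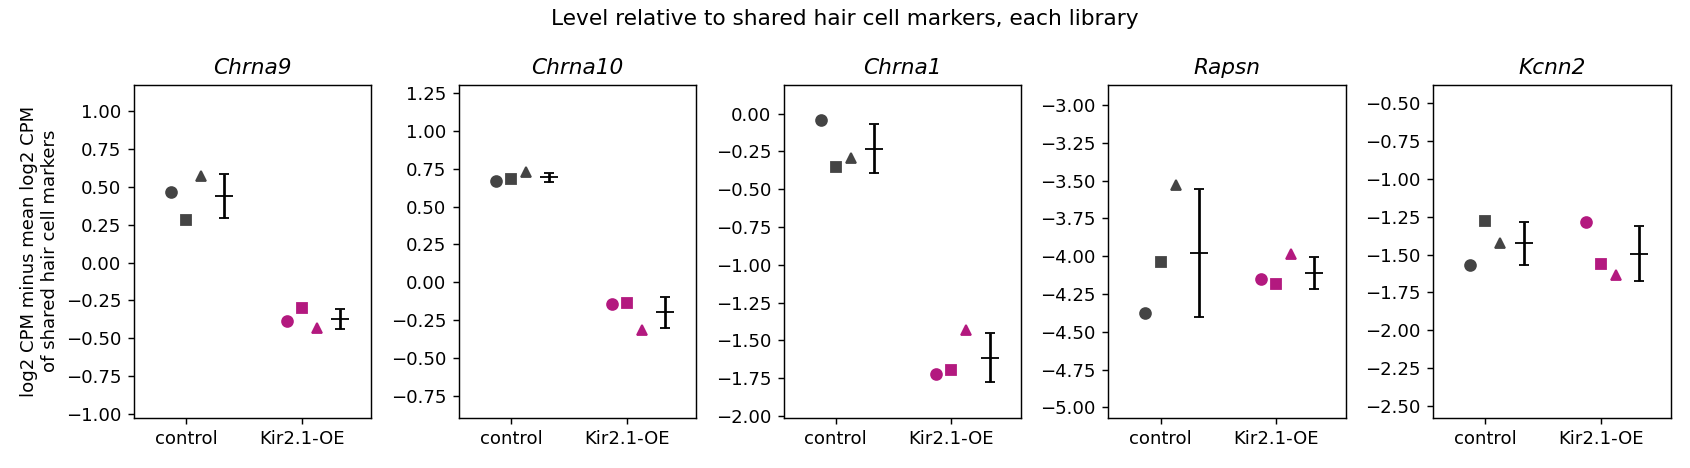
Level of each gene minus the mean level of 10 shared hair cell markers, in log2 CPM, in each library, with panels of equal height in log2 units and different starting points. Grey symbols are controls, magenta symbols Kir2.1-OE mice, circles, squares and triangles pools 1, 2 and 3, and bars the mean ± SD. The groups are apart for Chrna9, Chrna10 and Chrna1 and overlap for Rapsn and Kcnn2. The marker mean was itself higher by 0.44 in Kir2.1-OE pools, so a gene with no change of its own would also lie lower. The share of all tested genes whose groups are apart on this scale was not measured.

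Markers of other cell types were measured in the same libraries, and their part in the differences above was not tested. All counts of called markers stand against the 15.5% of all tested genes that were called higher. Of 7 spiral ganglion neuron markers 5 were called higher, with a summed level of 518 to 1330 CPM in Kir2.1-OE pools and 230 to 386 in control pools. Schwann cell markers were called higher in 2 of 6 cases, with 9946 to 13064 CPM against 7052 to 9009, and the same numbers of neuronal and Schwann cell markers were called with the offsets. Inner hair cell markers were called higher in 2 of 6 cases, with 474 to 556 CPM against 400 to 444, but with the offsets 1 was called and their median log2 fold change went from 0.26 to −0.03. Outer hair cell markers were called higher in 2 of 7 cases and lower in 0, with overlapping sums of 840 to 1006 CPM against 924 to 1109. They were unequal, with log2 fold changes from −0.41 for Sri and −0.30 for Ocm to 0.60 for Ikzf2 and 0.62 for Slc26a5. Their median was 0.16, and 0.18 with the offsets. By that fit 2 were called higher and Strc, at −0.69, was called lower, against 5.91% and 3.95% of all tested genes. Of 7 supporting cell markers 1 was called higher, with summed ranges that overlapped.

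The other genes of the cholinergic pathway were taken as 7 lists with 77 genes, of which 65 were tested. Of these, 20 (30.8%) were called higher and 3 (4.62%) lower, against 15.5% and 5.08% of all tested genes. With the length and GC offsets 8 were called higher and 7 lower, or 12.3% and 10.8%, against 5.91% and 3.95% of all tested genes. Each list is described below with its median log2 fold change.

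Among the other nicotinic receptor subunits 7 of 13 were tested, 1 was called higher and 1 lower, and the median log2 fold change was −0.44. Chrna3, which had the most reads of them in control pools, while Chrnb4 had more in Kir2.1-OE pools, fell by 0.65 on the log2 scale, from 814 ± 41 to 518 ± 51.1 normalized counts (SD, n = 3, adjusted p = 7.50e-04, edgeR's quasi-likelihood F-test, Benjamini-Hochberg adjusted). It remained called with the offsets, at −0.78. Chrna4, at −0.54 with overlapping groups and not called in the main fit, was called lower with the offsets, at −0.97. Chrnb2 rose by 0.82, from 238 ± 49.7 to 421 ± 129 normalized counts (adjusted p = 0.0147, same test), and was not called with the offsets, at 0.18. Like Chrna1, Chrna3 was called lower, and which cells the reads of either gene came from was not tested.

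Of the other SK and IK channels and the partners of the SK channel, 10 of 11 genes were tested and 0 were called by edgeR's quasi-likelihood test or by DESeq2, and 6 had an unadjusted p under 0.05, as did 57.4% of all tested genes. Kcnn1 and Kcnn3, the other SK channel genes, had log2 fold changes of 0.57 (adjusted p = 0.0684) and 0.42 (adjusted p = 0.129, and −0.09 with the offsets), so that no member of the SK family was called. With the offsets Kcnn4, the intermediate-conductance channel, was called lower at −1.08 and Ppp2ca, a phosphatase subunit, at −0.73.

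The clustering genes, which at the neuromuscular junction signal from the nerve to rapsyn or anchor the receptor, were all tested, and 5 of 12 were called higher and 0 lower, with a median of 0.42. Agrin (Agrn) rose by 0.63, its receptor Lrp4 by 1.01 and the kinase Musk by 0.83 on the log2 scale. The anchoring genes Sntb2 and Utrn rose by 0.66 and 2.03, and Dag1, dystroglycan, which had the most reads, had a log2 fold change of 0.36. The median transcript of this list was 5979 nt, and with the offsets the median was −0.01 and only Musk, at 0.76, and Utrn, at 1.19, were called. The direction of Agrn turned, to −0.30 (adjusted p = 0.0301, the same test with the offsets), as did that of Dag1, at −0.17, while Lrp4 was at 0.21 and Sntb2 at −0.01. Musk had few reads, with 105 ± 24.2 normalized counts in Kir2.1-OE pools and 58.5 ± 10.8 in control pools (SD, n = 3).

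Genes that assist receptor assembly, and the Ly6 proteins that bind nicotinic receptors from outside, were all tested, and 3 of 11 were called higher and 1 lower, with a median of 0.25. Lynx1, which dampens nicotinic receptors, rose by 1.05, Tmem132e by 1.15 and Dmxl2 by 0.78 on the log2 scale. Ly6h, another of the Ly6 proteins, fell by 1.1, from 1894 ± 444 to 884 ± 79.0 normalized counts (SD, n = 3, adjusted p = 4.91e-04, edgeR's quasi-likelihood F-test, Benjamini-Hochberg adjusted). With the offsets Lynx1 at 0.71 and Ly6h at −1.13 were still called, and Lypd1 was called lower at −0.73. Ly6e, with the most reads, had a log2 fold change of 0.28, and Ric3, a chaperone of nicotinic receptors, one of 0.27 (adjusted p = 0.188).

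Behind the efferent synapse lies a flat cistern of endoplasmic reticulum that can store and release Ca2+, and the genes of such a store were all tested, with 6 of 10 called higher, 0 lower and a median of 1.11. The ryanodine receptor genes Ryr1, Ryr2 and Ryr3 rose by 2.43, 1.90 and 1.5 on the log2 scale, and the IP3 receptor genes Itpr1, Itpr2 and Itpr3 by 0.97, 1.26 and 1.54. Their levels differed widely, since Itpr1 had 6817 ± 676 normalized counts in Kir2.1-OE pools and 3484 ± 463 in control pools, and Ryr2 had 103 ± 29.3 and 27.5 ± 3.6 (SD, n = 3). Atp2a2, the Ca2+ pump SERCA2 and the gene of the list with the most reads, had a log2 fold change of 0.52 and was not called. The median transcript of the list was 9430 nt. With the offsets the median was 0.29 and Ryr1, at 1.06, and Ryr2, at 0.85, were called.

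Of the genes named for the presynaptic side 10 of 13 were tested, 2 were called higher and 1 lower, and the median was 0.27. The efferent axons come from the brainstem, and which cells of the dissected tissue gave the reads of these genes was not tested. Chat, which makes acetylcholine, had 0 reads in all 6 libraries, which allows a share of up to 8.47e-06% of the reads of the smallest library, a limit for counting error only. Slc18a3, the vesicular transporter of acetylcholine, had 0 to 2 reads. Ache, which breaks acetylcholine down, rose by 0.94 with overlapping groups, and Prima1, which anchors it in the membrane, rose by 1.1. Prima1 had few reads, with 37.0 ± 11.0 normalized counts in Kir2.1-OE pools and 17.2 ± 3.92 in control pools (SD, n = 3). Bche, butyrylcholinesterase, had the most reads, at a log2 fold change of 0.02. Calca, which encodes the peptide CGRP of efferent axons, fell by 1.52, from 34.6 ± 8.91 to 12.1 ± 4.24 normalized counts (SD, n = 3, adjusted p = 0.00813, edgeR's quasi-likelihood F-test, Benjamini-Hochberg adjusted). With the offsets Prima1 at 1.33 and Calca at −1.12 were called and Ache, at 0.57, was not.

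Of the muscarinic and GABA-B receptor genes, the other receptors for efferent transmitters, 5 of 7 were tested and 3 were called higher, 0 lower, with a median of 0.83. Chrm1 rose by 0.83, Chrm3 by 1.07 and Gabbr2 by 2.06 on the log2 scale. Gabbr1, with the most reads, had a log2 fold change of 0.28 (adjusted p = 0.176), and one of −0.19 with the offsets. With the offsets Chrm3 at 0.84 and Gabbr2 at 1.42 were still called.

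**Figure D5:**
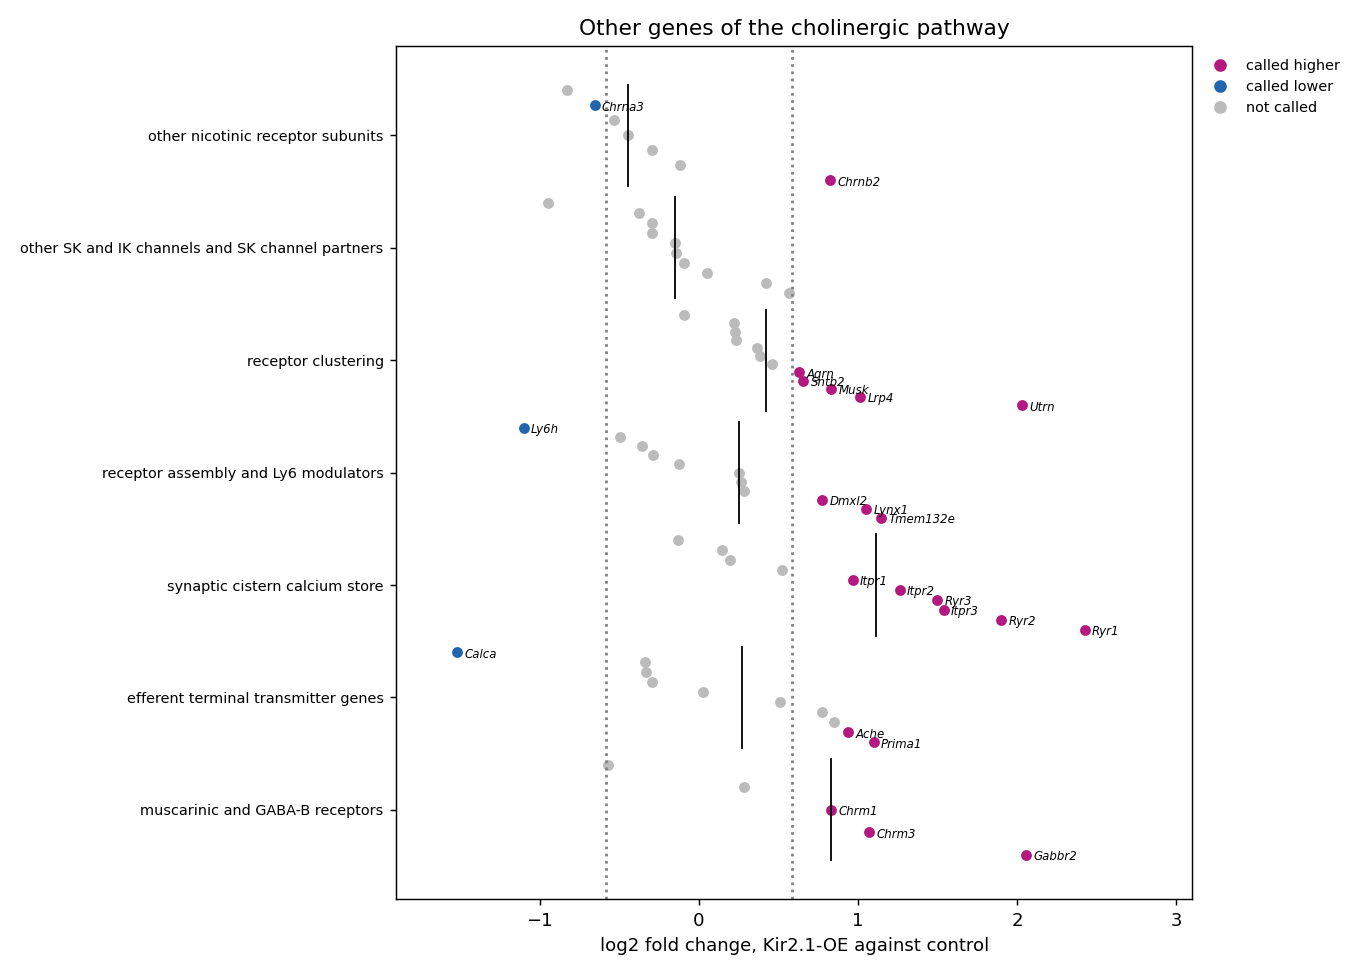
Log2 fold change, Kir2.1-OE against control, of the 65 tested genes in the 7 lists of pathway genes. Each point is 1 gene, magenta if called higher, blue if called lower and grey if not called, black bars are the list medians and dotted lines mark a fold change of 1.5. The 20 genes called higher are spread over 6 of the lists and the 3 called lower are Chrna3, Ly6h and Calca.

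The genes whose levels over the 6 libraries were most like those of each synapse gene were found by the root mean square difference of centred log2 CPM. Chrna1 was matched most closely by Ramp3, Nnat and Rps7, with differences of 0.0584, 0.0661 and 0.0695. For Chrna9 these were Aqp11, Bag2 and Fbxl6, between 0.0382 and 0.0426, and for Chrna10 Fcrlb, Dyrk3 and Amd2, between 0.0471 and 0.0602. Kcnn2 was most like Ccdc9, Fam13c and Pvr, between 0.0417 and 0.0510, and Rapsn most like Gm19522, Tagln and G530011O06Rik, between 0.0436 and 0.0703. None of the 5 synapse genes was among the 3 nearest of another.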

How the data were processed

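Poly(A) RNA was sequenced by the study in pairs of 150 bp reads. The authors mapped the reads to mm10 with the nf-core RNA pipeline and deposited expected counts from Salmon, estimates per gene symbol that are neither divided by length nor scaled for depth. Tool versions, gene annotation and strand setting are not given in the sources used here. Reads shared by overlapping or antisense genes therefore cannot be told apart. Of the expected counts 6.95% were not whole, and they were rounded.

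Libraries were grouped by genotype from the labels. edgeR 4.0.16 in R 4.3.3 was used with TMM scaling (factors 0.984 to 1.01), filterByExpr, quasi-likelihood F-tests, with p-values adjusted by Benjamini and Hochberg over 15303 genes. Levels in log2 CPM used a prior count of 2. Length and GC content came from the longest GENCODE vM21 transcript, matched for 23376 symbols directly and for 692 through older symbols, and entered as loess offsets with a span of 0.4. Replicates of a group differed by more than sampling noise, with a chi-square per degree of freedom of 15.7 to 31.1.

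The genes, lists and comparisons were chosen with earlier results of these data known. Named are the 5 synapse genes, Kcnj2, each pathway gene that was called, the gene of each list with the most reads (1 of these is not reported here) and the 3 genes most like each synapse gene. Genes named beyond this rule, such as Chrnb1, Kcnn1, Ric3, Art1 and the muscle markers, were chosen after their values were seen. Alternatives were other scalings and filters, a replicate block, the offsets, each library left out, DESeq2 1.42.0, limma-voom (limma 3.58.1), glmTreat, unrounded counts and no fold change threshold.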

Additional observations from a re-analysis of the deposited data

How the results depend on the processing

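Chrna9, Chrna10, Chrna1, Kcnn2 and Rapsn kept the direction of their log2 fold change under all 20 alternatives. With 1 library left out, the log2 fold change lay between −0.49 and −0.31 for Chrna9, −0.56 and −0.36 for Chrna10, −1.05 and −0.80 for Chrna1, 0.26 and 0.47 for Kcnn2 and 0.16 and 0.49 for Rapsn. Chrna1 was called under 18 alternatives and not when tested against a log2 fold change of 0.6, by DESeq2 (−0.97) or glmTreat (−0.96). Without the fold change threshold, Chrna9 (−0.37), Chrna10 (−0.45) and Kcnn2 (0.38) would have been called.

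Of the pathway genes 20 were called higher and 3 lower. The offsets for length and GC made these counts 8 and 7, and they were 7 and 1 by DESeq2 against 0.6, and 8 and 1 by glmTreat. With the offsets and the replicate block 5 were called higher and 4 lower. Lower calls numbered 5 with upper quartile scaling, which moved the median of all genes by −0.09, and 9 without the fold change threshold. With 1 library left out there were 15 to 21 higher and 3 to 5 lower calls, with 5 lower without control replicate 3.

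Relative to the hair cell markers, Kcnn2 reached 0.16 and Rapsn 0.44 with the offsets. Leaving out 1 library, they ranged from −0.17 to 0.0026 and from −0.33 to 0.0967. The differences of Kcnn2 turned positive, at 0.000925 with Kir2.1-OE replicate 3 removed and 0.00258 with control replicate 2 removed, and that of Rapsn turned positive without control replicate 3. The cause was not tested.

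Same-numbered libraries did not deviate together, with correlations of −0.106, −0.232 and −0.213 for numbers 1 to 3, and no library correlated best with its own number. The deviations were taken from the mean of only 3 pools in each group. These correlations therefore cannot decide whether same-numbered pools shared a litter or a preparation. The table of control replicate 1 carries the number 4 in its header. With the replicate block the log2 fold changes were −0.38 for Chrna9, −0.46 for Chrna10, −0.95 for Chrna1, 0.37 for Kcnn2 and 0.31 for Rapsn, with 17 pathway genes called higher and 3 lower. The number of pools, and for Rapsn its few reads, limit the precision.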
